A study of Mus musculus with 12 samples.

Results

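This account follows embryonic fibroblasts with a kinase-dead IRAK4 between 1 h and 4 h of interleukin-1 beta (IL-1b), by comparing the 2 arrays at 4 h with the 2 arrays at 1 h over all 12456 genes tested. These 4 arrays were chosen by their labels, out of 12 in the series. Fibroblasts were cultured from wild-type mouse embryos or from embryos of animals carrying an IRAK4 without kinase activity. Cells of either genotype were grown for 4 h without stimulation or received IL-1b for 1 h or for 4 h at 1 ng/ml, with 2 arrays in each of the 6 groups. By the series design the paired arrays are biological replicates, but separate animals or cultures are not named, so p-values measure the spread between these samples. The labels do not say how many embryos were pooled, whether the cells were a line, or which residue of IRAK4 was changed, and the Irak4 transcript was not analysed here. An unstimulated group at 1 h was not analysed here, so time in culture and time with IL-1b cannot be told apart within the 1 h to 4 h interval. The unstimulated cells were grown for 4 h, so a change by 1 h, measured against them, also holds a difference in time in culture.

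IL-1b binds its receptor, which recruits the adaptor MyD88 and the kinases IRAK4 and IRAK1, and the signal passes through TRAF6 and TAK1 to the NF-kB transcription factors and the MAP kinases. MAP kinases act through factors such as SRF and CREB on immediate early genes, whose short-lived mRNAs appear without new protein synthesis and decay within hours. NF-kB acts on chemokine genes, on cytokine genes and on genes for its own inhibitors. In IRAK4 without kinase activity the protein's scaffold function in the receptor complex is known to remain, so such cells can separate what the kinase activity does from what the protein does.

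The 200 bases before the start of 4 genes that rose and 4 that fell are printed as examples of windows that hold a motif, which most genes that changed at least 2-fold in either direction did not. Sequences are from RefSeq on GRCm38.p6, and bases are counted back from the annotated start. Capitals mark matches to the kB motif, the binding site of NF-kB. The Cxcl1 window is chr5:90891045-90891244, plus strand, with the match from 71 to 61 bases before the start. The Cxcl2 window is chr5:90903699-90903898, plus strand, with the match 97 to 87 bases before the start. The Ccl20 window is chr1:83116566-83116765, plus strand, with the match 80 to 71 bases before it, and the Nfkbie window is chr17:45555500-45555699, plus strand, with the match 106 to 97 bases before it. In Cxcl1 and Cxcl2 the capitals are 2 overlapping matches, 1 on each strand.
Cxcl1: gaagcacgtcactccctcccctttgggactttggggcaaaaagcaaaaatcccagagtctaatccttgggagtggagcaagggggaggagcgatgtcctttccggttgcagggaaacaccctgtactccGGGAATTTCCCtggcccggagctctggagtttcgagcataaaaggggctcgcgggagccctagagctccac
Cxcl2: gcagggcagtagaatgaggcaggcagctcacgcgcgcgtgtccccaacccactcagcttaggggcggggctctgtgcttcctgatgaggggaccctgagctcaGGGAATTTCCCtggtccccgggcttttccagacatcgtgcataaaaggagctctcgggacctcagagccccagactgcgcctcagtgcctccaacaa
Ccl20: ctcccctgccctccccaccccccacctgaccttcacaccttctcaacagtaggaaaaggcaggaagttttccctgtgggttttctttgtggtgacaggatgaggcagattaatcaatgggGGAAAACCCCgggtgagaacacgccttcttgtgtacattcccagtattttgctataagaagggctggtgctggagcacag
Nfkbie: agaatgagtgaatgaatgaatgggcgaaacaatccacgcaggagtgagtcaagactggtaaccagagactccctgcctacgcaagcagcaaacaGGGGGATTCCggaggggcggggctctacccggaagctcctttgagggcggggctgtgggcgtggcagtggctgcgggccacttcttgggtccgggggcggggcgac

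In the windows of genes that fell, capitals mark the CArG box, the binding site of SRF, in Egr2 and Dusp5, and the cyclic AMP response element TGACGTCA, bound by CREB and ATF factors, in Dusp1 and Btg2. The Egr2 window is chr10:67537366-67537565, plus strand, with the CArG box 72 to 63 bases before the start, and is 1 of 5 starts listed for that gene. The Dusp5 window is chr19:53528945-53529144, plus strand, with 2 adjoining CArG boxes from 82 to 63 bases before the start. The Dusp1 window is chr17:26508473-26508672, minus strand, with the element 143 to 136 bases before the start, and the Btg2 window is chr1:134079156-134079355, minus strand, with the element 166 to 159 bases before it.
Egr2: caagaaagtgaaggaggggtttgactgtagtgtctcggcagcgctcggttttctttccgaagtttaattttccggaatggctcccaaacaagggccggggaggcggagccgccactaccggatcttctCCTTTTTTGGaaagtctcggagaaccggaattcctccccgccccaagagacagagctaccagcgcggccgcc
Dusp5: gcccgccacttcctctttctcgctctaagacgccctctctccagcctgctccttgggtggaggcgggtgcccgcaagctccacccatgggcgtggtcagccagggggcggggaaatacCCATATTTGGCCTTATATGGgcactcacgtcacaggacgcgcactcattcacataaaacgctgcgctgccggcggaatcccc
Dusp1: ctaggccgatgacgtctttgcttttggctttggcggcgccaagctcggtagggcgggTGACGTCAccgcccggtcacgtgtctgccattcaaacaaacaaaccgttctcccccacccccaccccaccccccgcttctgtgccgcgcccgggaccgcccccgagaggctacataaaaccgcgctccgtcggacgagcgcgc
Btg2: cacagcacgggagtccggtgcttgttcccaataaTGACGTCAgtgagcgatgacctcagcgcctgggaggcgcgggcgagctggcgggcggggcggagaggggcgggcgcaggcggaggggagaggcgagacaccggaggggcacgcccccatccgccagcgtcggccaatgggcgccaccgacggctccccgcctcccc

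These genes were chosen because they held a match. Windows of 200 bases were available for 10051 of the 12456 genes tested, and a gene with several starts counted once if any window matched on either strand. The kB motif was in 8.95% of these genes, the CArG box in 1.16% and TGACGTCA in 2.86%. Among 39 genes with a window that rose at least 2-fold, 11 (28.2%) held a kB motif, and 1 each (2.56%) held the CArG box and TGACGTCA. Among 21 genes with a window that fell at least 2-fold, 3 (14.3%) held each of the motifs. Over all 32851 windows in the table the shares were 6.07% for the kB motif, 1.18% for the CArG box and 1.47% for TGACGTCA. No test was made of these shares, and a match describes letters, not binding.

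Between 1 h and 4 h, 279 genes rose and 224 fell in kinase-dead cells at an adjusted p under 0.05, the threshold used throughout (2.24% and 1.80% of the genes tested, 4.04% together). Values are signals on a linear scale, and fold changes are differences of log2(signal + 8), which understates the change of genes with low signals. The median change over all genes was 0.007. The rise was at least 4-fold for 7 genes, of which 6 encode chemokines and the other is Zc3h12a, an endonuclease of inflammatory mRNAs. The fall was at least 4-fold for Fos, Fosb, Nr4a1 and Egr3, all immediate early transcription factors. With a pseudocount of 32 the rises of Cxcl2 and Cxcl5 and the falls of Fosb and Nr4a1 were under 4-fold (1.895, 1.39, -1.35 and -1.86). The rise of Zc3h12a was as low as 1.52 over the alternatives, also under 4-fold. In all 503 called genes both arrays at 1 h lay on one side of both arrays at 4 h. When each array was centred on its median instead, 146 genes rose and 230 fell, so the balance between rises and falls depended on the scaling. Without the trend of variance on signal 81 genes were called, and leaving out single arrays gave 118 genes without kinase-dead 4 h replicate 2, 144 without 1 h replicate 1, 175 without 4 h replicate 1, 195 without 1 h replicate 2, and 885 and 879 without wild-type unstimulated replicates 1 and 2.

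Chemokine genes gave 6 of the 7 largest rises. Over all genes 2.24% rose and 1.80% fell. Of 22 chemokine genes tested, 8 rose and the other 14 were not called, with a median change of 0.40, and leaving out any 1 array left 6 to 8 called. Cxcl1, a neutrophil attractant, had signals of 73.8 and 36.7 at 1 h and of 855 and 720.3 at 4 h in kinase-dead cells. Without stimulation it had 22.8 and 11.7. Both 4 h arrays thus lay far above both 1 h arrays, and the change was 3.71 ± 0.25 (log2, standard error, n = 2 arrays per group, adjusted p = 8.6e-08). In wild-type cells Cxcl1 stood at 5945 and 6228 by 1 h and at 6314 and 5984 at 4 h, so the level of the 4 h kinase-dead arrays stayed below that of the 1 h wild-type arrays.

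Ccl2, which draws monocytes, had signals of 107 and 116 at 1 h and of 1498 and 1499.9 at 4 h, and rose by 3.65 ± 0.17 (adjusted p = 1.8e-09). Its neighbour in function Ccl7 went from 35.8 and 45.0 to 376 and 370.4, a rise of 2.98 ± 0.16 (adjusted p = 6.1e-09). For both, the 1 h arrays already lay above the unstimulated ones, at 60.6 and 53 for Ccl2 and 20.5 and 14.9 for Ccl7, and the changes by 1 h were 0.89 and 0.92 (adjusted p = 0.0079 and 0.0044). Cxcl2, another neutrophil attractant, was near 0 without stimulation (1.1 and 0.7), 14.4 and 11.9 at 1 h, and 143 and 129 at 4 h, with a rise of 2.77 ± 0.16 over the interval (adjusted p = 2.1e-08).

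Ccl20 and Cxcl5 had low signals at 1 h. Ccl20, a ligand of CCR6 on lymphocytes and dendritic cells, had signals of 14.4 and 4.8 without stimulation, 2.7 and 3.5 at 1 h, and 101 and 146 at 4 h. The 1 h signals lay far under the filter signal of 25.5, so the size of its rise depended on the pseudocount: 3.54 ± 0.24 as fitted (adjusted p = 8.6e-08), 4.91 with a pseudocount of 1 and 2.13 with 32. All 3 fits called it, while its difference at 1 h from unstimulated cells, -0.61, was not called (adjusted p = 0.19). Cxcl5 had 2.2 and 3.6 at 1 h and 67.3 and 52.2 at 4 h, with a rise of 2.63 ± 0.25 as fitted (adjusted p = 1.0e-05), 3.97 with a pseudocount of 1 and 1.39 with 32. The unstimulated and 1 h signals of Ccl20 and Cxcl5 overlapped or lay in the lowest part of the scale, where a difference has little meaning. Cxcl10, an interferon-induced attractant of T cells, went from 0.6 and 11.4 to 31.9 and 40.4 and rose by 1.77 ± 0.39 (adjusted p = 0.017), and Cx3cl1, the ligand of CX3CR1, rose by 0.65 ± 0.15 (adjusted p = 0.024). The call of Cxcl10 ended without 1 h replicate 1, 4 h replicate 1 or 4 h replicate 2 (adjusted p = 0.0715 to 0.199), and that of Cx3cl1 ended when any 1 of the 4 arrays compared was left out (adjusted p = 0.0751 to 0.174) and when its probe sets were averaged (0.64). Cxcl3 was at 13.7 and 0.5 at 1 h and at 5.9 and 8.3 at 4 h, with no call (adjusted p = 0.90), where the wild-type arrays at 4 h had 469.5 and 567.

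Genes for NF-kB subunits and their inhibitors followed. Of 15 tested, 5 rose and the other 10 were not called, with a median change of 0.44, where 2.24% of all genes rose. Nfkbiz, which encodes the nuclear co-regulator IkBzeta, had signals of 216 and 219 without stimulation, 453 and 412 at 1 h, and 1615 and 1485 at 4 h. The arrays of these groups did not overlap, and the rise from 1 h to 4 h was 1.82 ± 0.09 (adjusted p = 4.1e-09). Wild-type cells had already reached 4175 and 4284 at 1 h and stood at 3146 and 3072 at 4 h. Nfkbie, which encodes the inhibitor IkBepsilon, was 60.1 and 52.5 at 1 h, within the spread of unstimulated cells (63.6 and 35.8), and 237 and 193 at 4 h, a rise of 1.79 ± 0.21 (adjusted p = 7.9e-05). Relb, an NF-kB subunit, went from 29.7 and 34.3 to 103 and 99.0 and rose by 1.45 ± 0.23 (adjusted p = 0.0014).

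Nfkbia, which encodes IkBalpha, the inhibitor resynthesised after each round of NF-kB activity, had signals of 1030.2 and 1398 without stimulation, 2170 and 2108 at 1 h, and 3742 and 3767 at 4 h. It rose by 0.81 ± 0.14 over the interval (adjusted p = 0.0034), and without 4 h replicate 2 the adjusted p was 0.0514. Zc3h12a, also called regnase-1, was 7.8 and 29.3 at 1 h and 219 and 167 at 4 h, and rose by 3.04 ± 0.38 (adjusted p = 0.00020). Its other probe set was not called. Over the alternatives the call was kept, with a change of 1.52 to 3.66. Tnfaip3, which encodes the deubiquitinase A20, another brake on NF-kB, was 88.9 and 90.6 at 1 h and 118 and 132 at 4 h, and its change of 0.44 ± 0.14 was not called (adjusted p = 0.095). In wild-type cells Tnfaip3 peaked at 1621 and 1867 at 1 h and had 562 and 564 at 4 h.

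Effector genes rose as well. Stx11, a syntaxin of immune cell secretion, went from 80.6 and 119 at 1 h to 304 and 319 at 4 h, a rise of 1.59 ± 0.15 (adjusted p = 1.0e-05). Casp4, the inflammatory caspase-11, went from 14.7 and 30.3 to 91.1 and 82.8 and rose by 1.69 ± 0.24 (adjusted p = 0.00063). Csf1, the macrophage growth factor, went from 247 and 268 to 611 and 592, a rise of 1.20 ± 0.12 (adjusted p = 2.5e-05), and Fgf7, a growth factor for epithelial cells, from 486 and 522 to 936 and 917, a rise of 0.87 ± 0.11 (adjusted p = 0.00020). Birc3, an inhibitor of cell death induced by NF-kB, was 71.2 and 89.7 at 1 h and 178 and 150.2 at 4 h, and rose by 0.96 ± 0.19 (adjusted p = 0.0085). The call of Birc3 ended without 1 h replicate 1 or 4 h replicate 1 (adjusted p = 0.115 and 0.0959).

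**Figure D1:**
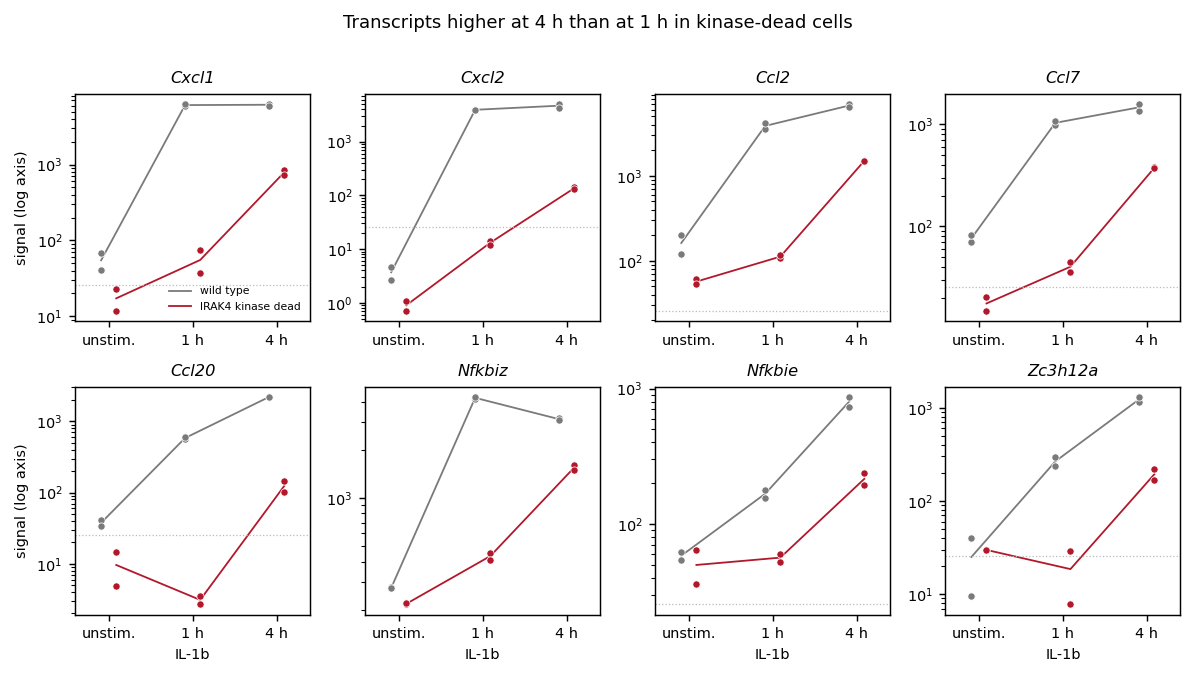
Signals (log axis) of 8 genes that rose from 1 h to 4 h in kinase-dead cells, on each array without stimulation and after 1 h and 4 h of IL-1b. Points are arrays, lines join the means of the 2 arrays, grey is wild type and red is kinase dead, and the dotted line is the filter signal of 25.5. The red points at 4 h lie above those at 1 h in every panel, and in every panel but Nfkbie below the grey points at 1 h.

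Immediate early genes had more falls than any other list. Of 45 tested, 18 fell, 3 rose and 24 were not called, with a median change of -0.32. In wild-type cells 20 fell and 1 rose. Over all genes 1.80% fell and 2.24% rose in kinase-dead cells, and 10.6% fell and 8.41% rose in wild-type cells. Fos, the AP-1 subunit, had signals of 109 and 98.3 without stimulation, 1611 and 1697 at 1 h, and 192 and 320.2 at 4 h in kinase-dead cells. The 1 h arrays stood far above all the others, and the change to 4 h was -2.70 ± 0.28 (adjusted p = 3.0e-05). Nr4a1, an orphan nuclear receptor, had 223 and 269.9 at 1 h and 46.1 and 42.8 at 4 h, a change of -2.27 ± 0.20 (adjusted p = 3.5e-06), and the 4 h arrays lay in the range of the unstimulated ones (37.4 and 62.2). Egr3, a zinc finger factor, had 2092 and 2564 at 1 h and 465 and 621 at 4 h, a change of -2.09 ± 0.13 (adjusted p = 6.6e-08), and was still above the unstimulated arrays (261 and 311).

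Fosb fell by 2.29 ± 0.48 (adjusted p = 0.012), from 56.2 and 105.9 to 1.4 and 24.3, and its arrays within a group were far apart. Ier2 had 149.9 and 153 at 1 h and 27.7 and 52.7 at 4 h, a change of -1.77 ± 0.28 (adjusted p = 0.0018). Egr1, a factor that MAP kinases induce through SRF, went from 5870.2 and 6111 to 2742 and 2702 and fell by 1.14 ± 0.09 (adjusted p = 9.7e-07), and Egr2 from 3715 and 4069 to 1823 and 1697, also a fall of 1.14 (± 0.16, adjusted p = 0.00063). At 1 h wild-type cells had 6708 and 6546 for Egr1 and 5081 and 5399.9 for Egr2. Jun, the partner of Fos, went from 3460 and 3529 to 1774 and 1808 (-0.96 ± 0.09, adjusted p = 8.4e-06). Btg2, which slows proliferation and recruits mRNA deadenylases, went from 578 and 496 to 249 and 241 (-1.10 ± 0.13, adjusted p = 7.9e-05), below the 1848 and 1877 of wild-type cells at 1 h.

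Falls also passed the test for Csrnp1 (-1.22, adjusted p = 0.0020), Atf3 (-1.01, adjusted p = 0.0092), Ier5 (-0.95, adjusted p = 0.0015) and Zfp36 (-0.80, adjusted p = 0.0082). Zfp36 encodes tristetraprolin, which binds AU-rich elements and speeds the decay of cytokine mRNAs. The other immediate early genes that fell did so by 0.33 to 0.99. The 3 that rose were Klf4 (0.74, adjusted p = 0.012), Nr4a2 (0.60, adjusted p = 0.042) and Gadd45b (0.43, adjusted p = 0.025). Nr4a1 and Nr4a2, members of one receptor family, thus moved in opposite directions. The calls of Fosb, Atf3, Zfp36, Klf4, Nr4a2 and Gadd45b ended without one or more of the arrays compared: 1 h replicate 1 for Klf4 and Gadd45b, 1 h replicate 2 for all but Klf4, 4 h replicate 1 for all but Klf4, and 4 h replicate 2 for all but Fosb. Their adjusted p then lay between 0.0544 and 0.343, and that of Nr4a2 also passed 0.05 without any 1 wild-type IL-1b array (0.0572 to 0.0618). With the mean of the probe sets Nr4a2 and Gadd45b were not called either (0.29 and 0.17). Over the fits without 1 array 10 to 19 of the list fell, with 10 without 1 h replicate 2 and 11 without 4 h replicate 2, and 0 to 4 rose.

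Of 20 feedback inhibitors of MAP kinase signalling tested, 4 fell, 1 rose and 15 were not called, with a median change of -0.22. Over all genes 1.80% fell and 2.24% rose. Dusp1, a nuclear phosphatase of p38 and JNK, had signals of 782 and 910.0 without stimulation, 1880 and 2117 at 1 h, and 868 and 725 at 4 h. Its 4 h arrays overlapped the unstimulated ones, and the change was -1.32 ± 0.14 (adjusted p = 2.4e-05). Dusp5, a nuclear phosphatase of ERK, went from 1259 and 1044 to 543 and 438 (-1.22 ± 0.14, adjusted p = 6.8e-05). Dusp6, its cytoplasmic relative, went from 593 and 704 to 359 and 403 (-0.75 ± 0.16, adjusted p = 0.012), and the call ended without 1 h replicate 2, 4 h replicate 1 or 4 h replicate 2 (adjusted p = 0.0601 to 0.133). The gene that rose was Rasa2, a Ras GTPase activating protein (0.70, adjusted p = 0.00054).

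Errfi1, which encodes the EGF receptor inhibitor MIG6, parted the genotypes. In kinase-dead cells it had 1152 and 1392 without stimulation, 3386 and 3612 at 1 h, and 1623 and 1976 at 4 h, a fall of 0.96 ± 0.10 (adjusted p = 3.0e-05). In wild-type cells it had 7317 and 7470.0 at 1 h and 7911 and 7047 at 4 h, a change of 0.01, and the changes of the genotypes differed by -0.98 ± 0.14 (adjusted p = 0.00064). Dusp6 likewise fell in kinase-dead cells and went from 465.5 and 434 to 684 and 694 in wild-type cells, a difference of -1.36 ± 0.22 (adjusted p = 0.0016). Edn1, the vasoconstrictor endothelin-1, fell from 125 and 136 to 50.9 and 34.8 (-1.46 ± 0.22, adjusted p = 0.0011), and Sgk1, a kinase induced by serum, from 2763 and 2796 to 1496 and 1578 (-0.85 ± 0.10, adjusted p = 7.5e-05). Ier3, an early gene of NF-kB, did not follow them. It had 331 and 414 without stimulation, 992 and 991 at 1 h, and 927 and 902 at 4 h, and its change of -0.12 ± 0.10 was not called (adjusted p = 0.61).

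**Figure D2:**
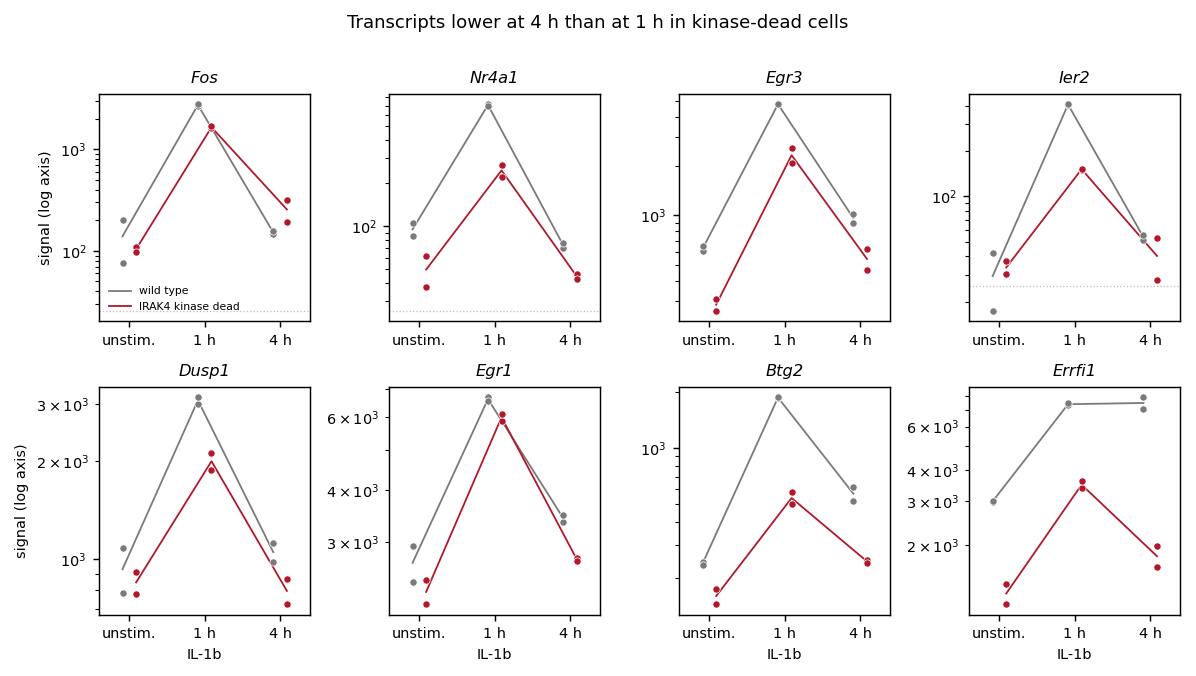
Signals (log axis) of 8 genes that fell from 1 h to 4 h in kinase-dead cells, on each array without stimulation and after 1 h and 4 h of IL-1b. Points are arrays, lines join the means of the 2 arrays, grey is wild type and red is kinase dead, and a dotted line, where drawn, is the filter signal of 25.5. The red points at 4 h lie below those at 1 h in every panel, and in the Errfi1 panel the grey points stay at 7047 to 7911.

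As a list, late inflammatory effectors moved less in kinase-dead than in wild-type cells, and for 10 of 26 the difference was called. Over all genes it was called for 3.58%. Of 26 acute phase and inflammatory effector genes, 4 rose, 1 fell and 21 were not called in kinase-dead cells, where 2.24% and 1.80% of all genes rose and fell. Their median change was 0.23, against 0.007 over all genes. In wild-type cells 18 rose, with a median of 1.23, where 8.41% of all genes rose. Il6, the cytokine that drives the acute phase response, had signals of 18.5 and 20.5 at 1 h and 19.5 and 25.3 at 4 h in kinase-dead cells. These arrays lay at or under the filter signal of 25.5, and the change of 0.14 ± 0.27 was not called (adjusted p = 0.85). In wild-type cells Il6 went from 132 and 133 to 1566 and 1658. Saa3, an acute phase protein, was 30.2 and 9.4 at 1 h and 41.3 and 47.3 at 4 h (1.02 ± 0.39, adjusted p = 0.16) against 971.5 and 718 in wild-type cells at 4 h. Lcn2, the iron-binding lipocalin-2, stayed at 2.8 to 8.4 on the 4 kinase-dead arrays (adjusted p = 0.97), where wild-type cells reached 190.2 and 168.

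A smaller rise was measured for Steap4, a metalloreductase, from 22.3 and 15.2 to 69.6 and 90.0 (1.72 ± 0.35, adjusted p = 0.010), and for Tnfaip2 from 263 and 286 to 729.6 and 817 (1.47 ± 0.18, adjusted p = 0.00014). The 2 other probe sets of Tnfaip2 were not called, and over the alternatives its change was 0.73 to 1.55, with the call kept. Cebpd, a transcription factor of the acute phase, rose by 0.88 ± 0.19 (adjusted p = 0.015) and Tnfaip6, a hyaluronan-binding protein, by 0.82 ± 0.19 (adjusted p = 0.020). The gene that fell was Ptger4, a prostaglandin E2 receptor (-0.56, adjusted p = 0.011). Among 28 adhesion and matrix genes 2 rose and 2 fell (median change 0.036), where 2.24% and 1.80% of all genes did. The leukocyte ligand Icam1 rose from 35.0 and 53.2 to 103.9 and 94.7 (1.06 ± 0.22, adjusted p = 0.012), and Vcam1 from 289.7 and 246 to 605.5 and 496 (1.01 ± 0.21, adjusted p = 0.013), while the matrix proteoglycan Vcan and the protease Adamts5 fell by 0.41 and 0.33 (adjusted p = 0.023 and 0.043). The calls of Cebpd, Tnfaip6 and Icam1 ended without 1 h replicate 1, 4 h replicate 1 or 4 h replicate 2, that of Steap4 without replicate 2 of either time, and those of Vcam1, Vcan, Adamts5 and Ptger4 without any 1 of the 4 arrays, with adjusted p from 0.0525 to 0.344. Adamts5 also lost its call without any 1 wild-type IL-1b array (0.0524 to 0.068). Over these fits 1 to 5 of the acute phase genes rose, with 1 without 4 h replicate 2 and 2 without 1 h replicate 1 or without 4 h replicate 1.

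Among 26 genes of cytokines and their receptors 3 rose (median change 0.13), Csf1, Socs2 and Lif. Socs2, a suppressor of cytokine signalling, had 145 and 220.2 without stimulation, 100.2 and 128 at 1 h, and 221 and 228 at 4 h, and rose by 0.94 ± 0.18 (adjusted p = 0.0083). Lif, a cytokine of the IL-6 family, went from 92.2 and 103 to 154 and 173 (0.70 ± 0.14, adjusted p = 0.011). Over all genes 2.24% rose and 1.80% fell, and the counts of the next 2 lists lay near these shares. Of 29 genes of the IL-1 receptor and MyD88 pathway, 1 rose, the receptor gene Il1r1, from 249.5 and 245 to 406.5 and 369.9 (0.63 ± 0.15, adjusted p = 0.023). Of 30 interferon-stimulated genes, Gbp3, a guanylate-binding protein, rose by 1.01 ± 0.24 (adjusted p = 0.026), and Irf7, a regulator of interferon genes, fell by 1.55 ± 0.39 (adjusted p = 0.035), from 22.7 and 35.8 to 4.8 and 4.2. Irf1, the related factor that IL-1b induced early in wild-type cells (556 and 654 at 1 h), had 45.0 and 72.6 at 1 h and 91.7 and 124 at 4 h, just outside the threshold (0.81 ± 0.22, adjusted p = 0.051). The calls of Il1r1, Gbp3 and Irf7 ended without any 1 of the 4 arrays compared (adjusted p = 0.0969 to 0.239), that of Socs2 without 1 h replicate 1 or either 4 h array (0.0567 to 0.119) or with its probe sets averaged (0.34, adjusted p = 0.40), and that of Lif without 1 h replicate 1 or 4 h replicate 2 (0.117 and 0.13). Irf1 passed the threshold without 1 h replicate 2 (adjusted p = 0.033) or without wild-type unstimulated replicate 1 or 2 (0.0359 and 0.0357), and also with a replicate block (0.0234), with a filter of a signal of at least 100 on at least 2 arrays (0.0424) and with robust eBayes (0.0487).

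Another set of rises belonged to genes whose signals at 1 h lay below those of unstimulated cells, which were grown for 4 h. Txnip, the thioredoxin-interacting protein that limits glucose uptake, had signals of 2456 and 2033 without stimulation, 1065 and 1052 at 1 h, and 2971 and 2801 at 4 h in kinase-dead cells. The 1 h arrays lay below all the others, and the rise to 4 h was 1.44 ± 0.09 (adjusted p = 6.6e-08). Its relative Arrdc4, a further arrestin family gene, had 310.0 and 275 without stimulation, 159.8 and 200.1 at 1 h, and 401 and 353 at 4 h. It rose from 1 h to 4 h by 1.04 ± 0.16 (adjusted p = 0.0014). Its other probe set was not called, and with their mean the change was 0.50 (adjusted p = 0.21). Ret, a receptor tyrosine kinase, had 336 and 436 without stimulation, 147.5 and 156 at 1 h, and 458 and 463 at 4 h. It rose from 1 h to 4 h by 1.55 ± 0.14 (adjusted p = 6.4e-06). Ddit4, an inhibitor of mTOR complex 1, had 1908 and 1674 without stimulation, 1099 and 1136 at 1 h, and 2001 and 1735 at 4 h. It rose from 1 h to 4 h by 0.73 ± 0.11 (adjusted p = 0.00071). Txnip and Ret were lowest at 1 h in wild-type cells too, at 988 to 1067 and at 60.9 to 68.4, whereas Ddit4 there had 2031 and 2133 at 1 h, within the range of its unstimulated 2449 and 1969.5.

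Ddit4 belongs to the list of the ATF4 and unfolded protein response. Of its 39 genes 5 rose and 1 fell (median change 0.18), where 2.24% and 1.80% of all genes did. The other risers were the transcription factor gene Cebpg (0.94, adjusted p = 0.0014), the glutathione-degrading Chac1 (0.72, adjusted p = 0.014), the cysteine-making enzyme Cth (0.67, adjusted p = 0.033) and the serine-making enzyme Psat1 (0.53, adjusted p = 0.0076), and the gene that fell was Atf3. Cebpg had 168 and 225 at 1 h against 340.3 and 350.4 without stimulation and 402 and 361 at 4 h, so it also was lowest at 1 h. With median centring 3 of the list rose, and without the trend of variance 0 rose. Over the fits without 1 array 2 to 6 of the list rose. The call of Chac1 ended without 1 h replicate 1, 4 h replicate 1 or 4 h replicate 2 (adjusted p = 0.0783 to 0.149), and that of Cth without 1 h replicate 1, 1 h replicate 2 or 4 h replicate 2 (0.146 to 0.325), and that of Psat1 without any 1 of the 4 arrays compared (0.0533 to 0.0834).

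Over all called genes, the median of the 279 rises was 0.65 from 1 h to 4 h. It was -0.385 at 1 h and 0.21 at 4 h, each against unstimulated cells. The median of the 224 falls was -0.58, 0.38 and -0.18 in the same order. These comparisons share arrays, so their values are given side by side only. Taken alone, the difference of 1 h from unstimulated cells was called for 408 genes (3.28%), 194 higher (1.56%) and 214 lower (1.72%) at 1 h. The unstimulated cells were grown for 4 h, so this comparison also differs in time in culture. The change by 4 h against unstimulated cells was called for 77 (0.618%), with 55 rises (0.442%) and 22 falls (0.177%). The 408 became 95 to 234 without any 1 of the kinase-dead unstimulated or 1 h arrays and 640 without either wild-type unstimulated array. The 77 became 28 to 51 without any 1 of the 6 kinase-dead or the wild-type 1 h arrays, and 314 and 315 without wild-type unstimulated replicate 1 or 2.

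**Figure D3:**
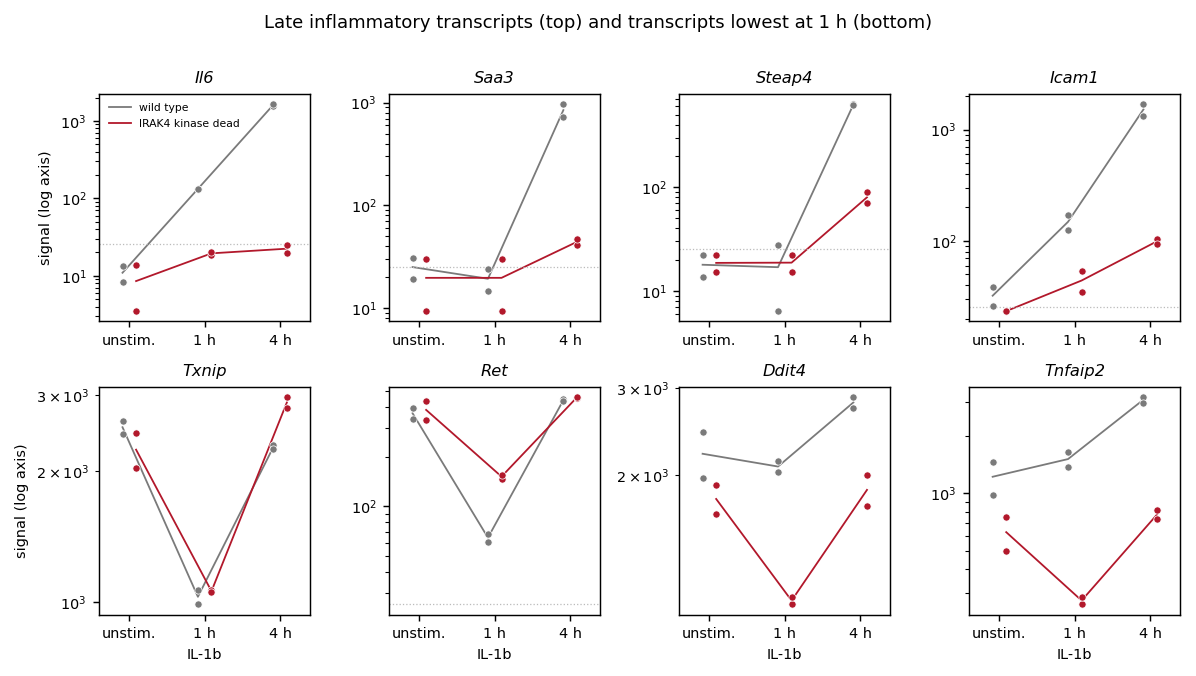
Signals (log axis) of 4 late inflammatory genes (top row) and 4 genes that rose from 1 h to 4 h (bottom row), on each array. Points are arrays, lines join the means of the 2 arrays, grey is wild type and red is kinase dead, and a dotted line, where drawn, is the filter signal of 25.5. In the top row the red points at 4 h reach at most 103.9, and in the bottom row the lowest red points are those at 1 h.

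The remaining lists changed in a few genes each, where 2.24% of all genes rose and 1.80% fell. Among 25 heat shock and oxidative stress genes Hsph1, Dnajb1 and Dnajb4, chaperone genes of the heat shock response, fell by 0.82, 0.81 and 0.66 (adjusted p = 0.0014, 0.0019 and 0.0017) and Txnip rose, and all 3 falls kept their call without any 1 array. Of 15 Id and BMP genes Id1, Bmp4 and Id3 fell by 0.86, 0.57 and 0.53 (adjusted p = 0.029, 0.011 and 0.013). Their calls ended without 1 h replicate 1 or 2 or 4 h replicate 2, and those of Id1 and Bmp4 also without 4 h replicate 1 (adjusted p = 0.0717 to 0.21). Of 19 mRNA decay genes Zc3h12a, Tob2 (0.58, adjusted p = 0.00043), Tob1 (0.56, adjusted p = 0.012) and Zfp36l2 (0.32, adjusted p = 0.029) rose, and Btg2 and Zfp36 fell. Tob1 and Zfp36l2 lost their calls without any 1 of the 4 arrays compared (adjusted p = 0.0858 to 0.194). Of 10 regulators of G-protein signalling Rgs16 rose by 1.06 ± 0.15 (adjusted p = 0.00054) and Rgs3 by 0.81 ± 0.22 (adjusted p = 0.048). The calls of Rgs16, Tob2 and Zfp36l2 ended when their probe sets were averaged (adjusted p = 0.30, 0.085 and 0.67), and that of Rgs3 ended without any 1 of the wild-type IL-1b arrays or of the 4 arrays compared (adjusted p = 0.0602 to 0.266).

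Genes of ribosome biogenesis and MYC targets, which supply growing cells with ribosomes, were not called in kinase-dead cells by limma: 0 of 53 passed and 5 had an unadjusted p under 0.05, with a median change of 0.057. In wild-type cells 19 of them rose (median 0.30), where 8.41% of all genes rose. The difference between the genotypes was nevertheless called for 0 of 53 (15 at an unadjusted p under 0.05). The delayed early genes of the growth factor response had 1 rise (Lif) and 1 fall (Dclk1) among 32, where 2.24% and 1.80% of all genes rose and fell. In wild-type cells 14 of them rose and 2 fell, where 8.41% and 10.6% of all genes did. The change differed between the genotypes for 8 of the 32, and for 3.58% of all genes. Dclk1, a microtubule-associated kinase, changed by -0.38 (adjusted p = 0.042) on its brightest probe set and by 0.17 when its probe sets were averaged, and its call ended without any 1 of 8 arrays, which were all but the wild-type unstimulated and 4 h ones (adjusted p = 0.0545 to 0.276). Of 28 Hox cluster genes, position genes of the embryo, 10 fell in wild-type cells, where 10.6% of all genes fell. In kinase-dead cells 1 of the 28 rose, where 2.24% of all genes rose. That gene was Hoxc4 (0.59, adjusted p = 0.012), whose call ended without 1 h replicate 2 or either 4 h array (adjusted p = 0.0899 to 0.133).

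**Figure D4:**
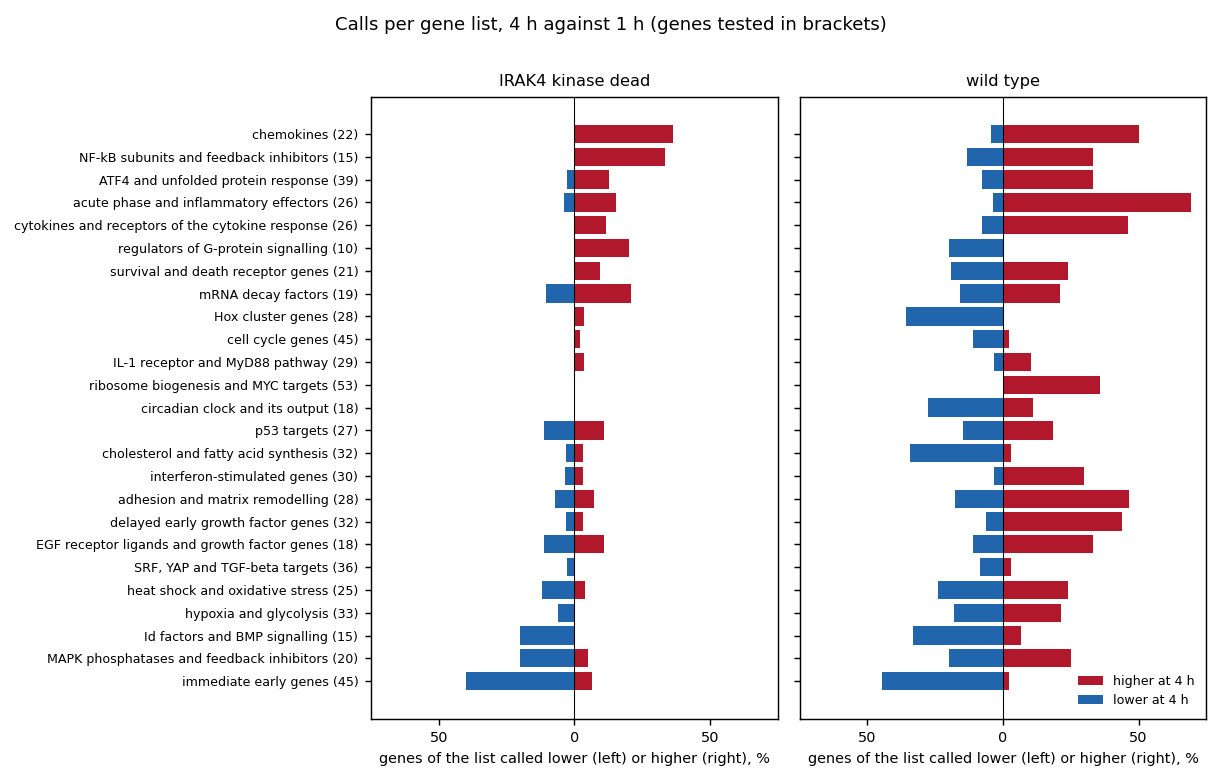
Share of the genes tested in each list (number in brackets) that were called lower (blue, left) or higher (red, right) at 4 h than at 1 h, in % of the list, for kinase-dead cells (left panel) and wild-type cells (right panel). In the kinase-dead panel the longest red bar is chemokines (8 of 22) and the longest blue bar is immediate early genes (18 of 45).

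The same interval in wild-type cells, measured on arrays that the kinase-dead comparison does not use, had 1048 rises and 1316 falls (8.41% and 10.6% of genes tested). Of the 279 kinase-dead rises, 168 also rose in wild-type cells, which is 60.2% of the kinase-dead rises and 16% of the wild-type ones, and 7 fell there. Of the 224 kinase-dead falls, 141 also fell in wild-type cells, which is 62.9% and 10.7%, and 6 rose there. Centring on the median moved the wild-type counts to 719 rises and 1642 falls, and without wild-type 1 h replicate 1 or 2 the sum was 1467 or 1382. Genes were also grouped by a call and a change of at least 2-fold in wild-type cells. That choice sets their wild-type medians for the same interval, which therefore do not measure a difference between the genotypes. Of 310 that rose in wild-type cells from 1 h to 4 h (median 1.39), 66 rose in kinase-dead cells and 2 fell. These are 21.3% and 0.645%, where 2.24% and 1.80% of all genes rose and fell. The median kinase-dead change was 0.40, against 0.007 over all genes. Of 267 that fell in wild-type cells (median -1.25), 50 (18.7%) fell in kinase-dead cells and the other 217 were not called. The median kinase-dead change of the 267 was -0.32. The next comparison, of 1 h with unstimulated wild-type cells, also differs in time in culture. By 1 h 927 genes were called in wild-type cells against unstimulated ones (7.44%), with 364 rises (2.92%) and 563 falls (4.52%), and 480 and 411 without wild-type 1 h replicate 1 or 2. Of 87 that had risen there at least 2-fold by 1 h, 21 (24.1%) rose from 1 h to 4 h in kinase-dead cells and 24 (27.6%) fell. Without single arrays these counts were 33 to 79 of the 310, 22 to 61 of the 267, and 13 to 23 rises and 15 to 29 falls of the 87.

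The change from 1 h to 4 h differed between the genotypes for 446 genes (3.58%), more positive in kinase-dead cells for 233 (1.87%) and more negative for 213 (1.71%). The count was 277 to 293 without any 1 kinase-dead IL-1b array, and 284 and 294 without wild-type 1 h replicate 1 or 2. The 6 most positive differences belonged to genes whose wild-type signals at 1 h lay above the unstimulated ones. Cxcl1 led, with a difference of 3.70 ± 0.35 (adjusted p = 9.9e-06), followed by Hpgd, the prostaglandin-degrading enzyme (3.10, adjusted p = 1.5e-05), Irf1 (3.10, adjusted p = 1.6e-05), Ccl2 (2.85, adjusted p = 3.4e-06), Cxcl2 (2.52, adjusted p = 7.4e-06) and Ccl7 (2.49, adjusted p = 7.3e-06). These arose in unlike ways. Ccl2 rose by 3.65 in kinase-dead and by 0.80 in wild-type cells, whereas Hpgd stayed at 35.1 to 50.7 on the 4 kinase-dead arrays and went from 252 and 317 to 25.1 and 22.0 in wild-type cells. Zfp36, at 279.7 and 311 at 1 h in kinase-dead and 1990.4 and 1836 in wild-type cells, fell in both and by more in wild-type cells (difference 2.23, adjusted p = 1.4e-05), and Tnfaip3 had a difference of 2.06 (adjusted p = 1.4e-05).

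The 6 most negative differences belonged to genes that rose from 1 h to 4 h in wild-type cells. They were Gbp6 (-4.17 ± 0.59, adjusted p = 0.00048), Saa3 (-3.95, adjusted p = 0.00041), Icosl, a ligand that costimulates T cells (-3.93, adjusted p = 0.00080), Lcn2 (-3.79, adjusted p = 0.0042), Cxcl3 (-3.77, adjusted p = 0.00081) and Il6 (-3.39, adjusted p = 5.3e-05). In wild-type cells at 4 h Gbp6, a guanylate-binding protein, had signals of 234 and 285 and Icosl of 295 and 306, while the 4 kinase-dead arrays had 8.3 to 22.9 for Gbp6 and 12.9 to 45.1 for Icosl. Steap4 and Icam1 differed by -3.09 (adjusted p = 0.0014) and -2.23 (adjusted p = 0.00043), although both rose in kinase-dead cells. With a pseudocount of 1 the differences of Lcn2 and Cxcl3 were not called (adjusted p = 0.0844 and 0.115). For Fos, Fosb and Nr4a1 the difference was not called (1.41, 2.26 and 0.86, adjusted p = 0.068, 0.084 and 0.11), but it was called for Fos under 7 of the alternatives, among them a replicate block (0.0343) and fits without wild-type unstimulated replicate 1 or 2 or kinase-dead 4 h replicate 1 (0.00131, 0.00141 and 0.0399), and for Fosb without wild-type or kinase-dead 4 h replicate 1 (0.0416 and 0.00837) and with a pseudocount of 32 (0.00238). That of Nr4a1 was called with a pseudocount of 32 (0.019) and with only the arrays of the groups compared (0.024). For Egr1, Egr3 and Dusp1 it was small, between -0.18 and 0.23.

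**Figure D5:**
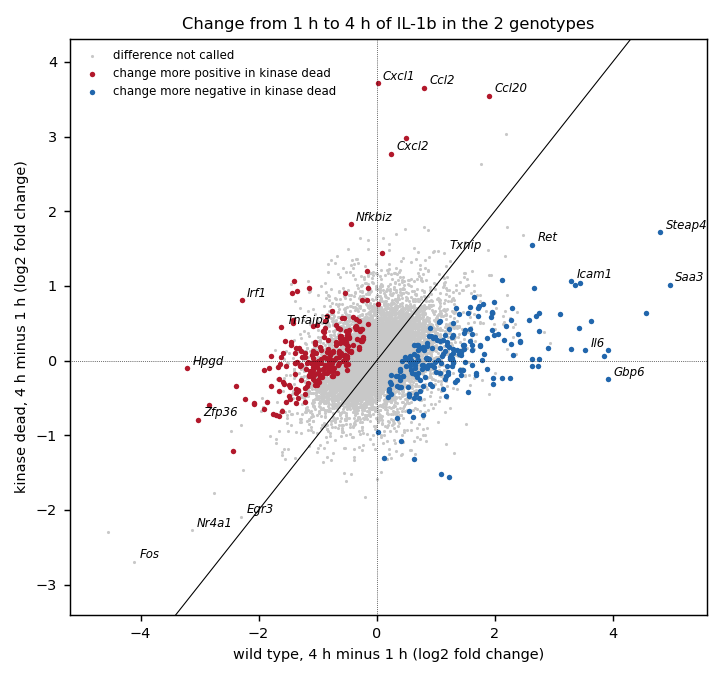
Log2 change from 1 h to 4 h of IL-1b in kinase-dead cells (vertical axis) against wild-type cells (horizontal axis), 1 point per gene tested, with the line of equal change. Red and blue points are the 233 genes with a more positive and the 213 with a more negative change in kinase-dead cells. Cxcl1 and Ccl2 lie high above the line near a wild-type change of 0.01 and 0.80, Il6 and Saa3 lie far to the right, and Fos and Nr4a1 lie low on the left in grey.

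In every group each of the 17 fibroblast markers reached the filter signal by the mean of its 2 arrays. Their summed signals were 38894 to 42345 on the 6 kinase-dead arrays. The 19 macrophage markers differed between the genotypes: their summed signal was 1948.5 to 2288.8 on the 6 kinase-dead arrays and 794.9 to 931.8 on the wild-type ones. By the mean of the 2 arrays of a group, 14 to 15 of the 19 reached the filter signal in kinase-dead groups and 6 to 9 in wild-type groups. On the 4 arrays compared Lyz1 had 553 to 675, Cd53 282 to 340 and Adgre1 29.8 to 34.6. Lower signals were those of Itgam (2.5 to 22.4), Fcgr1 (1.4 to 27.8) and C1qc (1.1 to 31.6). From 1 h to 4 h in kinase-dead cells the sum went from 2110.6 and 2288.8 to 1948.5 and 2065.1, and 0 of 16 macrophage markers tested were called by limma (1 at an unadjusted p under 0.05). The part of such cells in the genotype difference was not tested. Fewer cells of a type and less RNA per cell cannot be told apart in these bulk samples.

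The 12 largest rises and the 12 largest falls also held genes of low signal, among them Cxcl5 and Irf7, whose signals are given above. Rpl39, a ribosomal protein gene, went from 30.6 and 18.4 to 113 and 119.7 (1.96 ± 0.46, adjusted p = 0.024), and Stxbp5l, a syntaxin-binding protein, from 20.7 and 3.4 to 57.5 and 51.3 (1.78 ± 0.48, adjusted p = 0.045). Among the falls, Zfp524 changed by -1.58 (adjusted p = 0.040), C86187 by -1.32 (adjusted p = 0.028) and Cnbd2 by -1.32 (adjusted p = 0.030), and Chst2, a carbohydrate sulfotransferase, went from 36.0 and 34.9 to 6.2 and 6.2 (-1.61 ± 0.31, adjusted p = 0.0068). With the mean of its probe sets Chst2 changed by -0.55 (adjusted p = 0.57), and its other probe set was not called. Rpl39, Stxbp5l, Zfp524, C86187, Cnbd2 and Chst2 each lost their call without some of the arrays. For Rpl39, Zfp524 and Cnbd2 it was any of the 4 compared, for C86187 either 1 h array or 4 h replicate 1, for Chst2 replicate 1 at 1 h or replicate 2 at 4 h, and for Stxbp5l replicate 2 at 1 h, either 4 h array or any 1 wild-type IL-1b array (adjusted p = 0.0533 to 0.322). Other probe sets were tested for 40 of the 82 called genes named here. A second probe set agreed in a call and its direction for 17 of them, was called in the opposite direction for 1, Dclk1, and was without a call for 22.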

How the data were processed

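Total RNA of 12 samples was measured on 1-colour Affymetrix arrays, after RNeasy purification and NuGEN Ovation labelling per the labels. The deposited values are MAS5 intensities by the authors, per the submitters' processing notes, on a linear scale, with a trimmed mean of 150 on every array and medians of 23 to 28.3. The software version is not given in the sources used here. Of 45101 probe sets (64 controls), 34945 carry 1 gene symbol, 932 several and 9160 none in the platform annotation, and 34741 matched GRCm38.p6 by gene identifier. A probe set entered if its signal was at least 25.5, the median of all values, on 2 arrays, and the brightest probe set stood for its gene.

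Values of log2(signal + 8) were fitted with 6 group means (6 residual degrees of freedom) in limma 3.58.1 (R 4.3.3), with eBayes, a trend of variance on signal, and Benjamini-Hochberg adjustment over 12456 genes within each comparison. The script was tested on simulated data. Figures used matplotlib 3.10.9. Wild-type unstimulated replicate 1 has no genotype in its title and was placed by the series design.

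The members, the 31 gene lists (905 entries, 850 matched, 751 tested) and the tests were chosen with earlier results of these data known. Named genes were the 12 largest rises and falls among called genes whose arrays separate, up to 4 called members per list, the 6 largest genotype differences each way and 25 fixed genes. This gave 87 genes, of which the text names 75, and 17 others were named after their values were seen. Alternatives varied the pseudocount, filter, scaling, variance model, probe set choice, replicate block and each array left out. Within-group correlations of log2 signals were 0.967 to 0.974. The ratio of 3' to 5' signal of actin was 2.14 to 2.86.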

Additional observations from a re-analysis of the deposited data

Results flagged for a closer look

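For the genes below the change from 1 h to 4 h differed between the genotypes by limma's test of the difference itself (2 arrays per group, adjusted p under 0.05 over all genes). Values are the kinase-dead change minus the wild-type change on the log2 scale. Genes of the inflammatory response with a more positive change in kinase-dead cells were Cxcl1 (3.70), Irf1 (3.10), Ccl2 (2.85), Cxcl2 (2.52), Ccl7 (2.49), Nfkbiz (2.27), Tnfaip3 (2.06), Ccl20 (1.64) and Nfkbia (0.98). Hpgd, which degrades prostaglandins (3.10), and Zfp36, which speeds mRNA decay (2.23), belong to the same group. For Ccl20, whose kinase-dead signals at 1 h were 2.7 and 3.5, the difference was 0.27 with a pseudocount of 32 (adjusted p = 0.62), and the call also ended without wild-type 1 h replicate 2 (adjusted p = 0.0505) or kinase-dead 4 h replicate 2 (0.0637), and for Nfkbia without wild-type 1 h replicate 2 (0.0531).

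More negative changes in kinase-dead cells were measured for Gbp6 (-4.17), Saa3 (-3.95), Icosl (-3.93), Lcn2 (-3.79), Cxcl3 (-3.77), Il6 (-3.39), Steap4 (-3.09), Irf7 (-2.78), Gbp3 (-2.35), Icam1 (-2.23), Dusp6 (-1.36), Cx3cl1 (-1.31), Ret (-1.08) and Errfi1 (-0.98). Of these, Errfi1, Dusp6 and Irf7 fell in kinase-dead cells, and their changes in wild-type cells were 0.01, 0.61 and 1.23. Without the trend of variance the differences of Errfi1, Dusp6, Ccl20 and Nfkbia were not called (adjusted p = 0.0555, 0.0526, 0.0778 and 0.1406). Ret rose in both genotypes. Irf7 had signals under 42 on all 12 arrays, and its call ended without kinase-dead 1 h replicate 2 (adjusted p = 0.0546). The summed macrophage marker signal was higher on all kinase-dead arrays (1948.5 to 2288.8 against 794.9 to 931.8), and its part in these differences was not tested.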

How the results depend on the processing

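For the kinase-dead change from 1 h to 4 h (503 genes), the count was 81 without the trend of variance, 1001 with only the arrays of the groups compared, 329 with the mean of each gene's probe sets, and 118 to 885 when single arrays were left out. Median centring kept 376 calls with 146 rises, and quantile normalization 571. The difference between genotypes (446) fell to 180 without the trend and ranged from 277 to 634 when single arrays were left out. Leaving out single arrays gave 1382 to 2767 genes for the wild-type change from 1 h to 4 h, 95 to 640 for kinase-dead cells at 1 h against unstimulated ones (250 with median centring), 28 to 315 for 4 h (37 with centring), and 411 to 996 for wild-type cells at 1 h. With centring the wild-type counts were 751 rises and 236 falls by 1 h, against 364 and 563, as the median of all genes moved from -0.059 to 0.101. Fits without an array have fewer samples, and the 503 became 885 and 879 without wild-type unstimulated replicate 1 or 2. The cause of these moves was not tested.

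Of the 82 named genes called in the kinase-dead interval, 30 kept the call under every alternative and 52 lost it under at least 1, 41 of them without some single array and 47 without the trend. For the genotype difference 18 of 25 kept it. Changes of uncalled genes turned for Lcn2 (-0.0031 with centring, and -0.206 to 0.334 without single arrays), Hpgd (-0.327 to 0.119 without single arrays), Gbp6 (0.24 with the mean of probe sets, -0.714 to 0.209 without single arrays) and Cxcl3 (-0.528 to 0.824 without single arrays). The called fall of Dclk1 turned to 0.17 with the mean of probe sets.

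Arrays with the same replicate number did not deviate together (correlations of -0.05 to 0.099 over 15 pairs of groups), so the number was not taken as a pairing. With a replicate block 493 genes were called in the kinase-dead interval, 431 for the genotype difference, 2342 for the wild-type interval, 379 and 86 for kinase-dead cells at 1 h and 4 h, and 923 for wild-type cells at 1 h. The block ended the call of 1 named gene, Rgs3 (adjusted p = 0.0548), and brought Irf1 in the kinase-dead interval (0.0234) and the genotype difference of Fos (0.0343) past the threshold. The number of arrays limits the precision, and signals under 25.5 carry little order.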
